A study of Cucumis sativus with 6 samples.

Results

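Laccases are copper-containing oxidases of the plant cell wall that take electrons from phenols and pass them to oxygen. They are best known for joining monolignols into lignin. In Arabidopsis seed coats a laccase, TT10, oxidises flavonoids, among them the proanthocyanidins, or condensed tannins, that bind proteins in the mouth and are felt as astringency. Laccases belong to the multicopper oxidases, together with ascorbate oxidases and SKU5-like proteins, and the members of this family share cupredoxin folds.

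The genes described here are the 10 most abundant of the 26 genes whose product name holds the word laccase, in a table of 21317 cucumber genes. They were chosen by their product name and by their mean level over all 6 libraries. That mean is therefore a description and not a result. The rule itself uses no difference between tissues or days, although earlier results of these data were known when it was made. The libraries came from the peel and the flesh of Cucumis sativus fruits of the inbred line YB, both dissected at 3, 6 and 9 days after self-pollination, for a study of genes related to fruit astringency. Each library was a mix of 3 fruits, and each tissue and day had 1 library, so a tissue at a single day has no replicate. The peel libraries held 20999942, 19067317 and 14899922 reads assigned to genes at days 3, 6 and 9, and the flesh libraries held 23599019, 23740219 and 19151955. The day 9 peel library stood apart on the leading principal component of the log2(FPKM + 1) values, at -124 against a range of -36.6 to 79.6. FPKM (fragments per kilobase, scaled to library size) allow for gene length and depth, so levels can be compared between genes.

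The word laccase in the product name was set against the protein family entry that the same table gives for each gene. All 10 genes carried the entry Cupredoxin and 0 of 10 carried the entry Laccase. Of the 16 less abundant laccase-named genes, 12 carried the entry Laccase and 4 the entry Cupredoxin. The Cupredoxin entry was also the first one listed for 56 genes with other names. Among them were 14 called Blue copper protein, 17 with the same name marked putative, and 5 called L-ascorbate oxidase-like protein. The Laccase entry was listed first for 0 genes with other names, and entries listed later were not counted. Each of the 26 descriptions lists 1 entry, although other genes of the table list several, and the annotation does not establish that the 10 genes encode laccases. They are called laccase-named genes below. This split by entry was noticed after the values were seen.

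**Figure D1:**
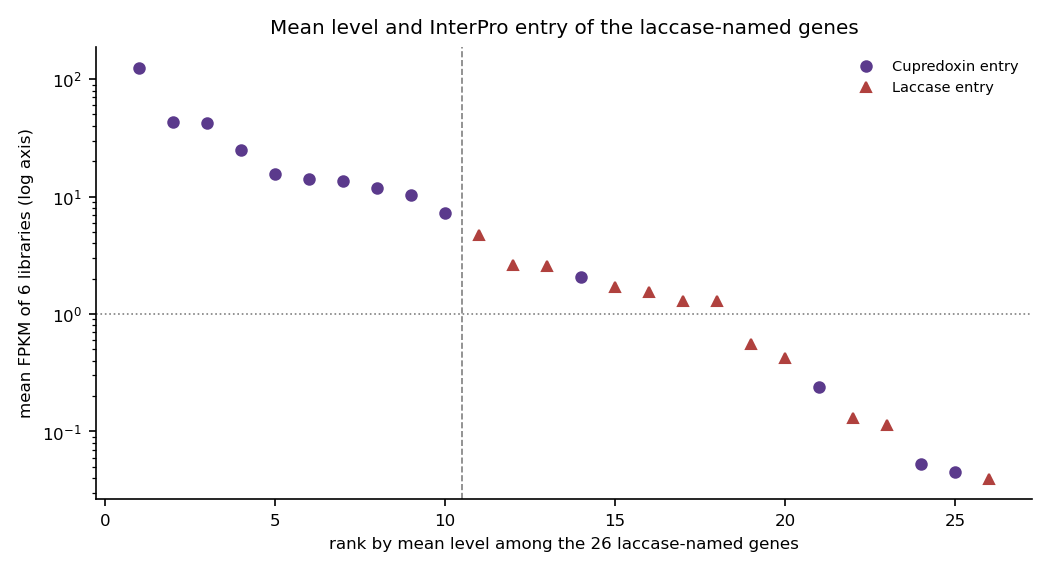
Mean FPKM of the 6 libraries (log axis) of the 26 laccase-named genes in order of level, with the protein family entry of each as circles (Cupredoxin) or triangles (Laccase). The dashed line separates the 10 most abundant genes, which all carry the Cupredoxin entry, from the other 16, and the dotted line marks a mean of 1 FPKM.

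The mean levels of the 10 ran from 7.23 FPKM (Laccase-2, Csa3G175700) to 126 FPKM (Laccase-22, Csa5G160220). Just outside the choice lay Laccase 1a (Csa4G308480), with a mean of 4.73 FPKM, followed by Csa3G734150 (2.61 FPKM), named Laccase, and a second Laccase 1a, Csa3G732490 (2.58 FPKM). The 10 genes held between 87.8% and 96.7% of the FPKM summed over all 26 names in each library. All 10 had a mean of at least 1 FPKM, the limit for testing, as did 8 of the other 16. The reads behind a single value ranged from 20 (Csa3G175700, day 9 peel) to 12834 (Csa5G160220, day 6 flesh). Counting error was thus small for most values. For Csa3G175700 in day 9 peel, 0.592 FPKM, the exact Poisson interval of 95% ran from 0.362 to 0.915 FPKM, and it covers counting error only.

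The 10 genes lay scattered over chromosomes 1 to 7, and the shortest distance between any of them and another laccase-named gene was 1080215 bases. The locus of each overlapped 0 other gene loci in the table. The chromosome 5 pair consisted of Csa5G160220 at positions 5880508 to 5884740, and of Csa5G174630 at 7261386 to 7266397, and both are named Laccase-22. Another member of that name, Csa7G374570, was at 13534305 to 13540845 on chromosome 7. Laccase-like protein Csa7G018770, at 1089345 to 1092873 on the same chromosome, lay 32 bases from its neighbour Csa7G018760. The others were Csa1G062350 at 6591887 to 6595941 on chromosome 1, Csa3G175700 at 11873819 to 11878234 on chromosome 3, Csa4G653410 at 22884655 to 22889942 on chromosome 4, Csa6G490140 at 23245361 to 23248767 on chromosome 6 and Csa7G043570 at 2383027 to 2387095 on chromosome 7, beside Csa2G348200, whose position is given with its values. Positions are those of the deposited table, without a named build, and the use of strand and the treatment of near-identical copies were not stated. Reads of similar family members could therefore have been assigned to either.

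**Figure D2:**
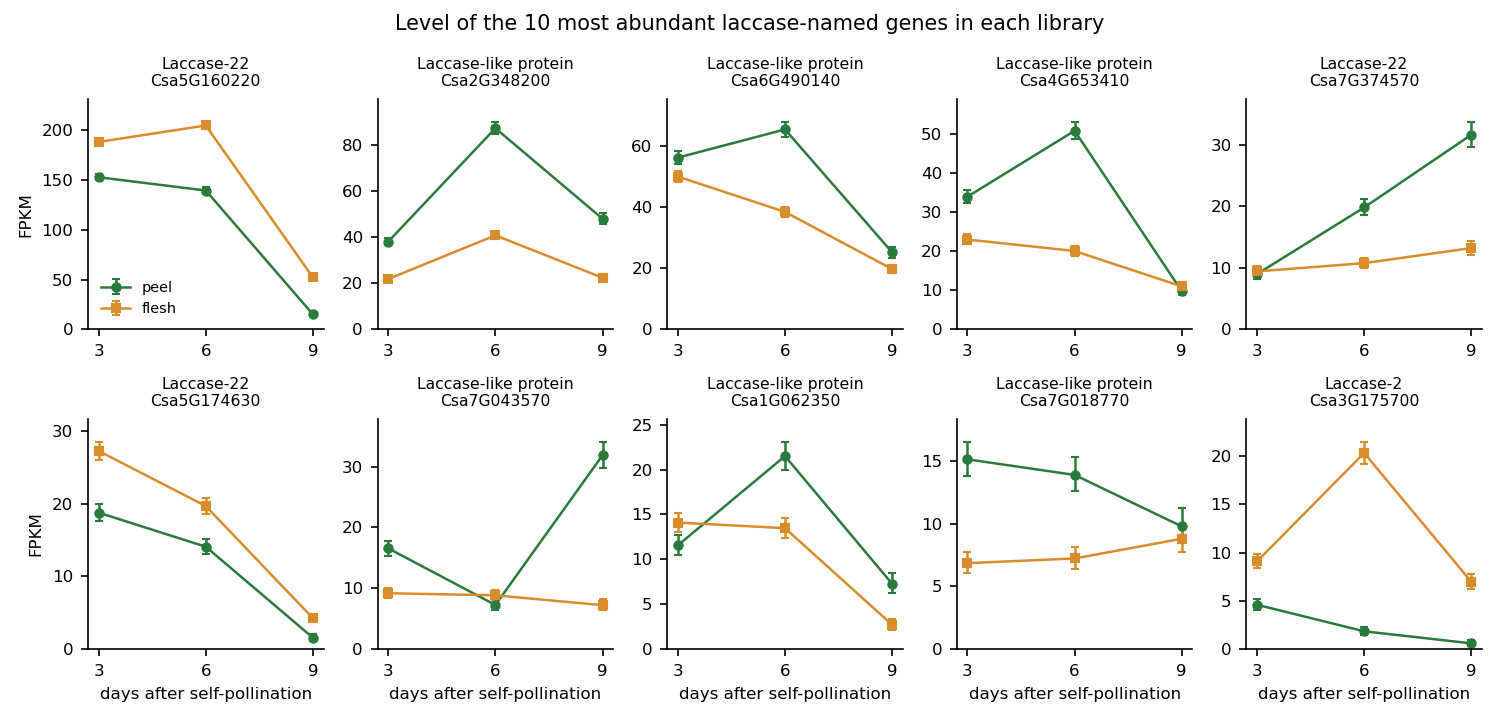
FPKM of each of the 10 genes in the peel (circles) and flesh (squares) libraries at days 3, 6 and 9, 1 library per point, with exact Poisson intervals of 95% for counting error only. The axes differ between genes and start at 0. The top left panel shows Laccase-22 (Csa5G160220) at 15.0 FPKM in day 9 peel and 52.2 FPKM in day 9 flesh.

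The summed level of the 10 genes was close in the 2 tissues and lower at day 9 than before. The sum was 357, 422 and 181 FPKM in peel at days 3, 6 and 9, against 359, 385 and 148 FPKM in flesh. Day 9 stood at 0.429 times the day 6 sum in peel and at 0.386 times in flesh. The ratio of peel to flesh was 0.993, 1.10 and 1.22 at the 3 days. FPKM summed over all genes differed between libraries, and the sums of the 10 were not rescaled to these totals. The totals were 652154, 625440 and 739338 in peel against 573006, 630835 and 705965 in flesh. A single gene, Csa5G160220, made up much of the sum, with 42.9%, 33.1% and 8.30% in peel and 52.5%, 53.3% and 35.2% in flesh over the 3 days. Laccase-like protein Csa2G348200 held 10.7%, 20.7% and 26.5% of the sum in peel, and was the largest share there at day 9. In bulk tissue, fewer cells of a type and less RNA per cell cannot be told apart.

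**Figure D3:**
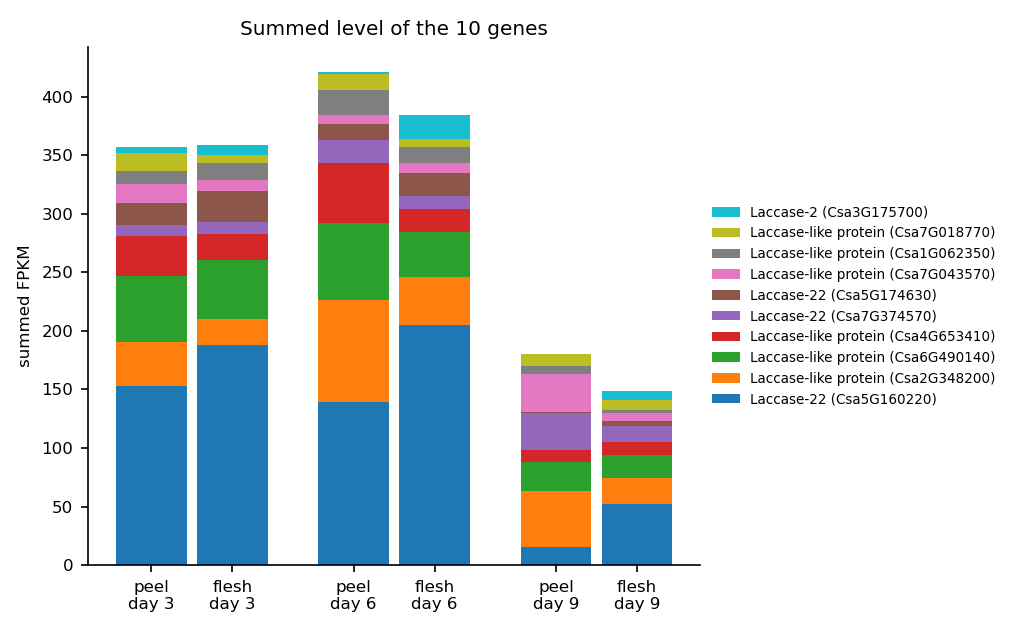
FPKM of the 10 genes stacked in each library, with peel beside flesh at each day. The sums lie between 357 and 422 FPKM at days 3 and 6 and at 181 (peel) and 148 (flesh) FPKM at day 9.

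Day 9 was compared with day 3 over both tissues, which asks how the genes changed as the fruits grew. Csa5G160220, the most abundant of the 10, had 153, 139.6 and 15.0 FPKM in peel at days 3, 6 and 9. In flesh its levels were 188, 205 and 52.2 FPKM. Both day 9 libraries lay below all 4 earlier ones, and the loss came between day 6 and day 9. On the log2(FPKM + 1) scale its difference was -2.55 ± 0.41 (SE), with the same sign in 2 of 2 tissues (limma, adjusted p = 0.0658).

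The other chromosome 5 member named Laccase-22, Csa5G174630, had 18.8, 14.1 and 1.56 FPKM in peel over the 3 days. Flesh had 27.2, 19.7 and 4.24 FPKM. Its levels declined at each step in both tissues, and the difference was -2.69 ± 0.25 (SE; limma adjusted p = 0.0568), the largest in size of the 10. Over the 6 libraries its log2 levels had a Pearson r of 0.979 with those of Csa5G160220 (Spearman rho 0.943), the highest of the 45 pairs of members, which share their libraries.

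3 laccase-like proteins were also lower at day 9 in both tissues. Csa6G490140 had 56.3, 65.5 and 25.2 FPKM in peel against 50.1, 38.5 and 19.7 FPKM in flesh, with a day 9 minus day 3 difference of -1.21 ± 0.23 (SE; limma adjusted p = 0.0807). Both of its day 9 values were below all 4 earlier ones. Csa4G653410 had 34.0, 50.9 and 9.79 FPKM in peel against 23.0, 20.1 and 10.98 FPKM in flesh, with a day 9 minus day 3 difference of -1.35 ± 0.39 (SE; limma adjusted p = 0.140). Csa1G062350 had 11.6, 21.5 and 7.28 FPKM in peel against 14.1, 13.5 and 2.71 FPKM in flesh, with a day 9 minus day 3 difference of -1.31 ± 0.39 (SE; limma adjusted p = 0.148). Without the day 3 flesh library or the day 9 flesh library, Csa1G062350 had -0.73 or -0.83. In peel these 3 genes were highest at day 6, and in flesh they were highest at day 3.

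Laccase-22 Csa7G374570 went the other way from its namesakes. It had 8.99, 19.8 and 31.7 FPKM in peel against 9.42, 10.8 and 13.2 FPKM in flesh, higher at each later day in both tissues. The day 9 minus day 3 difference was 1.08 ± 0.36 (SE; limma adjusted p = 0.173). Leaving out day 3 peel gave 0.54, leaving out day 9 peel 0.67 and leaving out day 3 flesh 1.62. Laccase-like protein Csa7G043570 had 16.6, 7.25 and 31.8 FPKM in peel, with its lowest peel value at day 6. In flesh it stayed between 7.22 and 9.18 FPKM, so its day 9 minus day 3 difference of 0.30 ± 0.57 (SE; limma adjusted p = 0.770) averaged a positive value in peel (0.90) and a negative one in flesh (-0.31). Without the day 9 peel library the estimate was -0.57. Day 9 minus day 3 differences of -0.13 ± 0.30 (Csa7G018770), 0.18 ± 0.20 (Csa2G348200) and -1.08 ± 0.55 (Csa3G175700) completed the 10 (SE; limma adjusted p between 0.301 and 0.809). With 1 library left out, Csa3G175700 ranged between -0.19 (without day 3 peel) and -1.96 (without day 3 flesh), and Csa2G348200 between 0.03 (without day 3 peel) and 0.33 (without day 3 flesh).

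**Figure D4:**
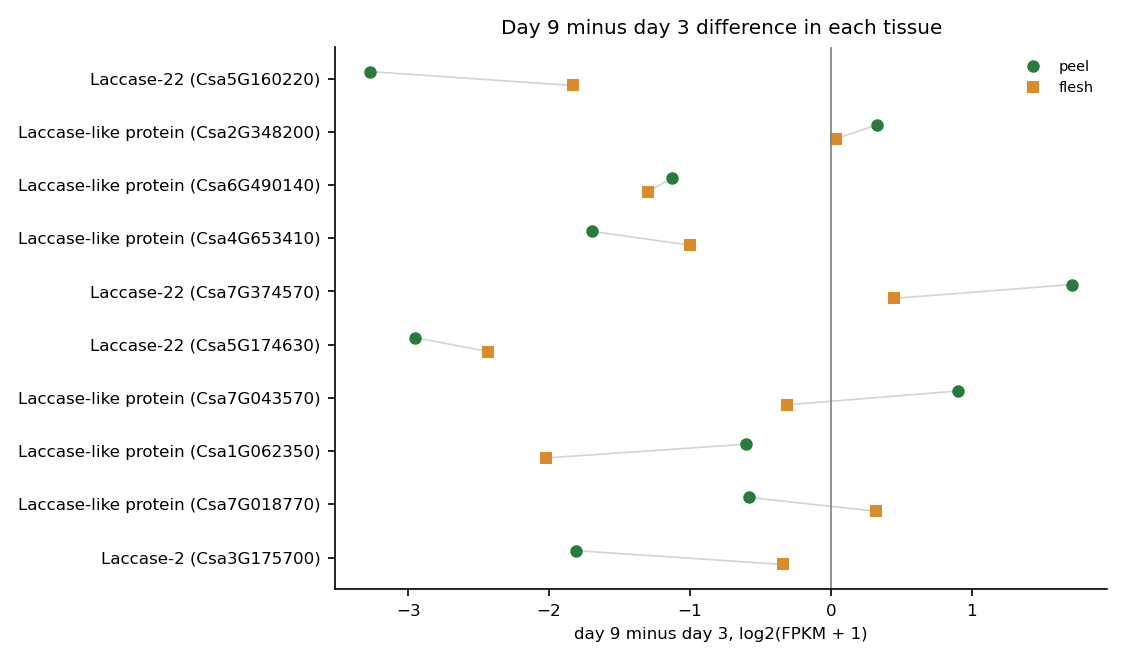
Day 9 minus day 3 difference of log2(FPKM + 1) for each of the 10 genes in peel (circles) and flesh (squares), each from a single pair of libraries. Csa5G160220 and Csa5G174630 lie farthest to the left, at -3.27 and -2.95 in peel and at -1.83 and -2.43 in flesh, and Csa7G374570 lies at 1.71 in peel and 0.45 in flesh.

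limma passed 0 of the 10 genes at an adjusted p under 0.05, and it called 0% of all 17265 genes tested. At an unadjusted p under 0.05, 5 of the 10 were lower and 1 was higher at day 9, where 13.6% of all tested genes were lower and 11.3% higher. edgeR on recovered reads also passed 0 of the 10 (0.142% of all genes tested), with the same 6 at an unadjusted p under 0.05. DESeq2 called 5, all lower at day 9, namely Csa5G160220, Csa5G174630, Csa6G490140, Csa4G653410 and Csa1G062350, with adjusted p from 1.18e-10 to 0.0478. It called 16.0% of all genes. The median difference of the 10 was -1.14, against 0.01 over all genes tested. Without the day 9 peel library, these 5 genes had estimates of -1.90, -2.41, -1.15, -0.81 and -1.80 in the order named. In this model the 2 tissues serve as the repeats of a day, and the error has 2 residual degrees of freedom.

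By single steps, without a test, 7 of the 10 were lower at day 9 than at day 6 in both tissues, against 34.0% of all tested genes. From day 6 to day 9 in peel, Csa5G160220, Csa4G653410 and Csa5G174630 lay at least 4-fold lower on the log2(FPKM + 1) scale, as did 2.20% of all tested genes. In flesh 0 of the 10 lay that far below day 6 on this scale, against 0.979% of all tested genes, the nearest being Csa5G174630 at -1.98. On FPKM without the added 1, Csa1G062350 and Csa5G174630 did pass 4-fold, as their day 9 flesh stood at 0.201 and 0.216 times day 6. Against day 3, again on log2(FPKM + 1), Csa5G160220 and Csa5G174630 lay at least 4-fold lower at day 9 in peel (4.63% of all tested genes). In flesh Csa5G174630 and Csa1G062350 did (3.06%). On FPKM without the added 1, the day 9 peel level of Csa3G175700 also passed 4-fold, at 0.129 times day 3. The steps from day 3 to day 6 were at most 1.18 log2 units in size in peel (Csa2G348200) and 1.08 in flesh (Csa3G175700).

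Peel was compared with flesh as the main contrast of the dissection. Csa2G348200, a laccase-like protein on chromosome 2 (15616973 to 15622022), had 38.0, 87.2 and 47.9 FPKM in peel against 21.8, 40.7 and 22.3 FPKM in flesh. The ratio of peel to flesh was 1.74, 2.14 and 2.15 at the 3 days, and both tissues were highest at day 6. Because the day 6 flesh value exceeded the day 3 peel value, the ranges of the 2 tissues overlapped. The log2 difference was 0.97 ± 0.16 (SE), higher in peel at 3 of 3 days (limma, adjusted p = 0.0775).

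Csa7G018770 was the only one of the 10 whose 3 peel libraries all lay above its 3 flesh libraries, as did those of 11.8% of all tested genes. It had 15.2, 13.9 and 9.80 FPKM in peel against 6.86, 7.24 and 8.81 FPKM in flesh. The ratio of peel to flesh was 2.21 at day 3 and 1.11 at day 9, so the tissues were nearly level at the end. Its difference was 0.68 ± 0.24 (SE; limma adjusted p = 0.189).

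Laccase-2 (Csa3G175700) was the only one of the 10 with all 3 peel libraries below all 3 flesh libraries, an order that 12.8% of all tested genes had. It had 4.59, 1.84 and 0.592 FPKM in peel against 9.09, 20.3 and 6.97 FPKM in flesh. Peel stood at 0.505 times the flesh level at day 3, at 0.0907 times at day 6 and at 0.0850 times at day 9. The day 9 peel value came from 20 reads and that of day 9 flesh from 315. Its log2 difference of -2.03 ± 0.45 (SE; limma adjusted p = 0.103) was the largest in size of the 10. It was the one member at least 4-fold lower in peel at days 6 and 9, when 2.06% and 3.94% of all tested genes were.

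Csa5G160220 and Csa5G174630 were lower in peel than in flesh at 3 of 3 days, with differences of -0.86 ± 0.33 and -0.67 ± 0.20 (SE; limma adjusted p = 0.208 and 0.149). For Csa5G160220 the ratio of peel to flesh was 0.812, 0.681 and 0.287 at the 3 days. Leaving out either day 9 library gave -0.43. Csa6G490140 was higher in peel at 3 of 3 days, by 0.42 ± 0.19 (SE; limma adjusted p = 0.254), and by 0.25 without either day 6 library.

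The other 4 changed sign between days. Csa7G374570 had a peel to flesh ratio of 0.955 at day 3, 1.84 at day 6 and 2.40 at day 9. Csa1G062350 had ratios of 0.820, 1.60 and 2.69. Both thus had flesh slightly ahead at day 3 and peel ahead at day 9. Csa4G653410 had ratios of 1.48, 2.54 and 0.892, so its peel excess at day 6 was gone at day 9. Csa7G043570 had 1.80, 0.821 and 4.41. Its day 9 ratio thus exceeded 4-fold on FPKM, while its day 9 difference of log2(FPKM + 1), 2.00 after rounding, lay just under the 4-fold bound.

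**Figure D5:**
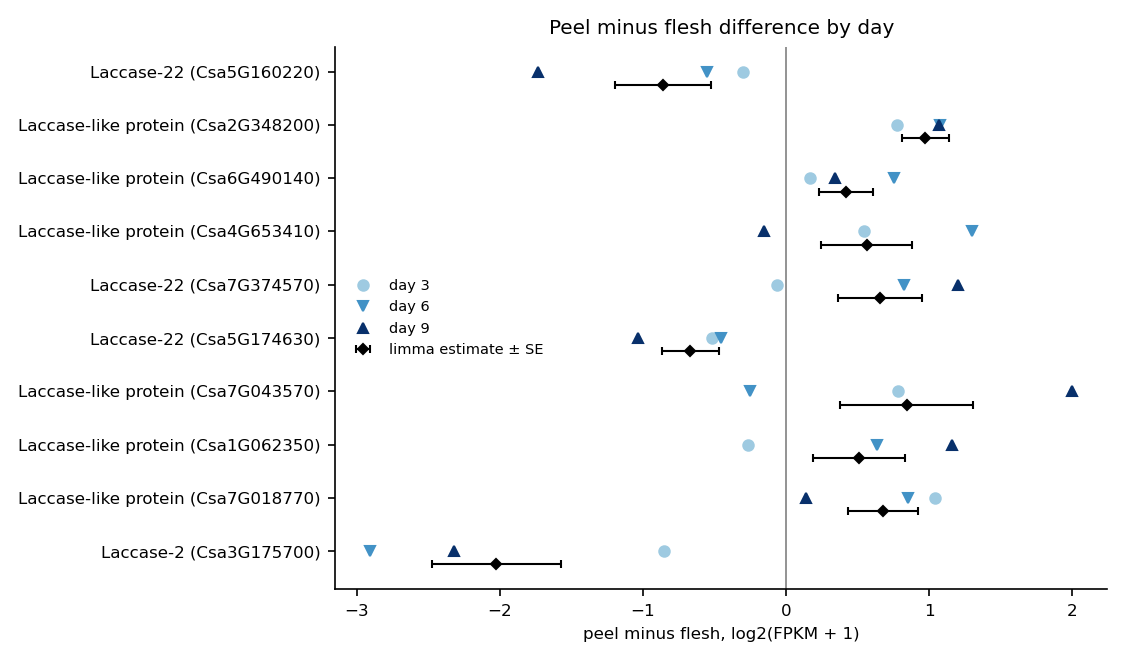
Peel minus flesh difference of log2(FPKM + 1) for the 10 genes at day 3 (circles), day 6 (triangles down) and day 9 (triangles up), with the limma estimate and its SE (diamonds). Positive values are higher in peel. Csa3G175700 lies at -0.85, -2.91 and -2.32 and Csa2G348200 at 0.78, 1.08 and 1.07.

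For peel against flesh limma passed 0 of the 10 genes, where it called 0.261% of all genes tested. At an unadjusted p under 0.05, 2 were higher (Csa2G348200 and Csa7G018770) and 2 lower in peel (Csa5G174630 and Csa3G175700), and 13.0% of all tested genes were higher and 12.3% lower. edgeR also passed 0 (1.49% of all genes), with 3 at an unadjusted p under 0.05. DESeq2 called 2, Csa2G348200 as higher in peel (adjusted p = 1.05e-03) and Csa3G175700 as lower (adjusted p = 1.82e-04), and it called 17.4% of all genes. Over days, 3 of the 10 were higher and 3 lower in peel at all 3 days, beside 25.0% and 28.3% of all tested genes. The median difference of the 10 was 0.54, against -0.03 over all tested genes. By day it was 0.05, 0.69 and 0.24, and at day 3 0 of the 10 differed 4-fold (3.48% of all tested genes).

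Whether the time course differed between the tissues was asked by the difference of the slopes over days. limma passed 0 of the 10 (0% of all genes), with 1 at an unadjusted p under 0.05 (8.72% of all genes), and edgeR passed 0 with 1 at an unadjusted p under 0.05. That gene was Csa7G374570, whose slope in peel exceeded that in flesh by 0.21 ± 0.08 log2 units per day (SE; limma adjusted p = 0.563). DESeq2 called 0 of the 10 and 2.22% of all genes. A straight line over 3 days misses courses that peak at day 6, such as that of Csa2G348200 in both tissues.

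Genes whose course over the 6 libraries was most like that of the 3 most abundant members were sought among 12589 named genes averaging 5 FPKM or more. This likeness is a description over 6 shared libraries. For Csa5G160220 they were a Ribonucleoside-diphosphate reductase (Csa6G486750, Pearson r = 0.999, Spearman rho = 1), which makes the building blocks of DNA, a Plastid DNA-binding protein (Csa2G384970, r = 0.997, rho = 1) and Histone-binding protein RBBP4 (Csa7G012400, r = 0.997, rho = 0.943), a histone chaperone subunit. The reductase had 42.8, 38.6 and 9.74 FPKM in peel against 50.7, 52.5 and 22.4 FPKM in flesh. For Csa6G490140 they were a BTB/POZ domain-containing protein (Csa6G495650, r = 0.997, rho = 1), a GDSL esterase/lipase (Csa5G524860, r = 0.997, rho = 1) and a Histone H2B (Csa6G448180, r = 0.994, rho = 1), a core histone that packages DNA. The histone had 127, 131 and 25.8 FPKM in peel against 82.4, 58.2 and 17.4 FPKM in flesh. For Csa2G348200 they were a Pectin acetylesterase (Csa1G561360, r = 0.991, rho = 0.943), which removes acetyl groups from pectin, a Transmembrane protein (Csa5G168790, r = 0.982, rho = 0.943) and a Beta-lactamase-like protein (Csa1G536310, r = 0.964, rho = 1). The esterase had 73.1, 170.2 and 91.2 FPKM in peel against 44.0, 69.8 and 47.7 FPKM in flesh, with its highest value in day 6 peel like Csa2G348200.

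The 16 less abundant laccase-named genes had means from 0.0398 to 4.73 FPKM. Summed over the 12 with the Laccase entry, levels were 15.3, 12.0 and 15.8 FPKM in peel against 15.0, 24.7 and 19.3 FPKM in flesh at days 3, 6 and 9. Their sum was therefore not lower at day 9 than at day 3 in either tissue, unlike that of the 10 abundant genes. In flesh it was lower at day 9 than at day 6. The other 4, with the Cupredoxin entry, summed to 3.22, 2.49 and 1.52 FPKM in peel against 3.42, 2.38 and 1.36 FPKM in flesh. The sum of these 4 was lower at day 9, like that of the 10. Most of it was 1 gene, Csa2G286480, with 2.79, 2.17 and 1.42 FPKM in peel against 3.15, 1.91 and 0.927 FPKM in flesh. The others of the 4 had means of at most 0.239 FPKM, below the limit for testing, so the sum does not show a shared decline. The differences between these sums were not tested. Laccase 1a (Csa4G308480) had 2.64, 2.18 and 4.21 FPKM in peel against 6.12, 7.15 and 6.07 FPKM in flesh, lower in peel at 3 of 3 days (-0.92 ± 0.26, SE; limma adjusted p = 0.138). Csa1G533470, chosen after its values were seen, had 5.29 FPKM in day 3 peel and at most 1.12 FPKM in the other libraries, and was listed at 0 in day 9 flesh. Of the 18 laccase-named genes tested, limma passed 0 in each of the 3 contrasts. At an unadjusted p under 0.05 there were 6 for peel against flesh (13.0% of all tested genes were higher and 12.3% lower), 7 for day 9 against day 3 (11.3% higher and 13.6% lower) and 1 for the slopes (8.72%). Outside the 10, DESeq2 called Csa4G308480 (adjusted p = 0.0257) and Csa1G085370 (adjusted p = 1.85e-03) as lower in peel, beside 17.4% of all genes called. For day 9 against day 3 DESeq2 called Csa1G533470 as lower (adjusted p = 0.0122), beside 16.0% of all genes. That gene had 4 reads in day 9 peel and 0 in day 9 flesh.

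Genes that act beside laccases were described by lists of product names. Their counts at an unadjusted p for peel against flesh stand beside 13.0% of all tested genes higher and 12.3% lower in peel. For that contrast limma called 0.261% of all genes tested and edgeR 1.49%. Class III peroxidases, which also couple monolignols, summed to 2488, 1523 and 4055 FPKM in peel against 1697, 1822 and 3012 FPKM in flesh, over 62 genes. For peel against flesh 0 of 31 tested peroxidases passed limma and 2 passed edgeR. At an unadjusted limma p under 0.05, 9 were higher and 4 lower in peel, and the median was 0.25. The most abundant, Csa1G062960, had 1359, 896 and 818 FPKM in peel against 1062, 1125 and 2247 FPKM in flesh. Its neighbours in rank were Csa4G285780, with 173, 91.8 and 1016 FPKM in peel against 14.2, 2.38 and 8.46 FPKM in flesh, and Csa4G285770, with 496, 142 and 232 FPKM in peel against 218, 86.5 and 27.2 FPKM in flesh. Peroxidase levels thus exceeded those of the 10 laccase-named genes in sum in all 6 libraries, on the FPKM scale.

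Genes on the list of monolignol enzyme names (42 genes, of which 32 were tested) summed to 805, 624 and 1212 FPKM in peel against 635, 467 and 714 FPKM in flesh. The list also took in N-hydroxycinnamoyl/benzoyltransferases, for which a part in making monolignols was not established. Of these, Csa3G732470 had 100 FPKM in day 9 peel and 161 FPKM in day 9 flesh, and Csa4G308490 had 136 and 46.8 FPKM. For peel against flesh 0 of the 32 passed limma and 1 passed edgeR. At an unadjusted limma p under 0.05, 9 were higher and 3 lower in peel. Their median was 0.33 for peel against flesh and 0.01 for day 9 against day 3. The entry enzymes of phenylpropanoid synthesis, which lead to both lignin and tannins, had a median of 1.50 for peel against flesh over 34 tested genes. limma and edgeR passed 0 of them, and 16 had an unadjusted limma p under 0.05, all higher in peel. Their sum was 641, 764 and 2217 FPKM in peel against 482, 178 and 221 FPKM in flesh at days 3, 6 and 9. The 10 laccase-named genes had 181 and 148 FPKM at day 9. Dirigent proteins, which guide the coupling of phenol radicals into lignans, had 4 tested genes, a median of 0.32 and 0 past limma (1 higher at an unadjusted p under 0.05, edgeR 0). The most abundant of these, Csa4G293090, stayed between 28.9 and 39.9 FPKM in peel and between 29.1 and 32.8 FPKM in flesh.

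Among related multicopper oxidases, an Ascorbate oxidase (Csa1G604040), which oxidises the ascorbate of the cell wall, was far more abundant than any laccase-named gene. It had 2116, 2736 and 1912 FPKM in peel against 1095, 724 and 1765 FPKM in flesh. Of the 9 genes of this list 2 were tested and 0 passed limma, with 0 at an unadjusted p under 0.05 (edgeR 0). Copper supply genes, matched by the names of copper transporters and chaperones, had a median of -0.34 over 13 tested genes, with 0 past limma or edgeR. At an unadjusted limma p under 0.05, 2 of the 13 were higher and 4 lower in peel. The list took in a Cytochrome c oxidase copper chaperone (Csa3G105960), and which of its genes supply multicopper oxidases was not established. A Copper chaperone (Csa5G615220) had 344, 278 and 443 FPKM in peel against 183, 372 and 1186 FPKM in flesh. A Copper transporter (Csa1G526830) had 20.7, 16.9 and 18.8 FPKM in peel against 55.8, 87.3 and 73.6 FPKM in flesh, and all its peel levels lay below all its flesh levels, as did those of 12.8% of all tested genes.

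Levels of marker lists of tissue and cell types also differed between libraries. Epidermis and cuticle genes, which should mark peel, summed to 299, 380 and 653 FPKM in peel against 200, 127 and 92.1 FPKM in flesh. Of the 17 tested, 2 passed limma (0.261% of all genes tested), both 3-ketoacyl-CoA synthases higher in peel (Csa1G501850 and Csa3G144140). At an unadjusted limma p under 0.05, 9 were higher and 1 lower in peel (13.0% and 12.3% of all tested genes). Peel was higher for 12, 13 and 15 of the 17 at days 3, 6 and 9. Another synthase, Csa2G361630, had 14.2, 26.2 and 37.7 FPKM in peel against 21.7, 27.9 and 29.0 FPKM in flesh. Between 0 and 4 of the 20 genes were at 0 in a library. Vascular and phloem genes summed to 12169, 8737 and 14660 FPKM in peel against 1292, 4741 and 17906 FPKM in flesh over 27 genes, and between 1 and 4 were at 0. Most of this sum came from the Phloem filament proteins Csa7G067350, Csa7G067370 and Csa7G222880. The first of them had 5752, 3241 and 4732 FPKM in peel against 517, 1304 and 5655 FPKM in flesh. For day 9 against day 3, limma and edgeR passed 0 of 21 tested, and 6 had an unadjusted limma p under 0.05, all higher at day 9. Of all tested genes, 11.3% were higher and 13.6% lower at that p. Genes on the seed list summed to 2408, 1954 and 5388 FPKM in peel against 1911, 1622 and 4180 FPKM in flesh. Of its 55 genes, 7 to 16 were at 0. The list took in late embryogenesis abundant proteins by name, and whether its sum marks seed tissue was not tested. A Legumin-like protein (Csa3G218170) passed limma as lower in peel, where it had 10.7, 10.97 and 4.81 FPKM, against 112, 123 and 127 FPKM in flesh. Late embryogenesis abundant protein Csa3G121560 went the other way, with 155, 246 and 320 FPKM in peel against 5.45, 3.90 and 64.1 FPKM in flesh. For peel against flesh, the 26 tested genes of the list had a median of -0.18, and 10 were positive. Of these 26, 2 were higher and 6 lower in peel at an unadjusted limma p under 0.05 (13.0% and 12.3% of all tested genes). Most of the seed sum was 1 gene, Late embryogenesis abundant protein 3L-1 (Csa7G398090), with 1975, 1472 and 4875 FPKM in peel against 1413, 1114 and 3547 FPKM in flesh. Over the 26 seed genes tested, the median day 9 minus day 3 difference was -0.11 and 12 were positive. At an unadjusted limma p under 0.05, 3 were higher and 3 lower at day 9 (11.3% and 13.6% of all tested genes), and limma and edgeR passed 0. The vascular and phloem sum, mostly of Phloem filament proteins, was higher at day 9 than at day 3 in both tissues. The sum of the 10 laccase-named genes was lower, and the part of cell type composition in that result was not tested.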

How the data were processed

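RNA-seq libraries of peel and flesh at 3, 6 and 9 days were analysed, 1 per tissue and day, each mixing 3 fruits per the labels' protocols. TopHat, without a version, and Cufflinks 2.1.1 appear in the submitters' processing notes. The authors deposited FPKM per gene; build, annotation and strand setting were not given in the sources used here. The deposited columns headed count were a scaled signal: dividing by the smallest step of each library gave whole reads for 99.7% to 99.8% of values above 0 (within 0.05), and these recovered reads gave depth and count tests.

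limma 3.58.1 (R 4.3.3) was fitted to log2(FPKM + 1) of the 17265 genes averaging 1 FPKM or more, with tissue and day as factors, or tissue by day as a number for slopes, an intensity trend and Benjamini-Hochberg adjustment over all genes. Tests were two-sided. The spread measures departures of days or tissues from a common difference, not replicate fruits. Differences within 1 pair of libraries were counted at 4-fold without a test. Fold changes on this scale understate those of low genes.

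Alternatives were pseudocounts of 0.1 and 5, other filters, rescaling, limma without a trend or a day term, each library left out, and edgeR 4.0.16 and DESeq2 1.42.0 on recovered reads. The limma fit was also run on simulated data. The simulated peel against flesh differences were larger than every such estimate of the 10, so power at the reported sizes was not assessed. Members and lists were chosen with earlier results of these data known. Named genes were all 10 members, the 3 laccase-named genes next in level, 3 most alike genes (Pearson r) for each of the 3 most abundant members and, from each list, the 3 most abundant members and any past the test, printed only where they bear on the members. Csa1G533470, Csa2G286480 and Csa1G085370 fall outside this rule and were chosen after their values were seen. A reference gene table of another assembly does not hold the identifiers and was not used here.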

Additional observations from a re-analysis of the deposited data

How the results depend on the processing

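The peel minus flesh differences of the 10 laccase-named genes kept their sign under every alternative run. DESeq2 called 2 of the 10 for peel against flesh and 5 for day 9 against day 3; limma and edgeR in all their settings called 0. Over all genes, 45 were called for peel against flesh, 167 with a pseudocount of 0.1, 0 with a pseudocount of 5, 0 without a filter, 187 after quantile normalization, 0 without a trend, 120 without a day term, 264 with edgeR, 289 with edgeR and DESeq2 size factors and 3119 with DESeq2. With any 1 library left out the number was 0, with 1 residual degree of freedom. For day 9 against day 3, 0 were called, but 4 with a pseudocount of 0.1, 8 at a mean of at least 5 FPKM, 5 after quantile normalization, 25 with edgeR under either scaling and 2875 with DESeq2, which also called 354 slopes. The cause of these shifts was not tested. At least 4-fold apart were 0, 1 and 1 of the 10 at days 3, 6 and 9. With a pseudocount of 5 these were 0 at days 6 and 9, with 0.1 the number was 2 at day 9, and over all tested laccase-named genes they were 1 at day 3 and 2 at day 6. Upper-quartile rescaling moved the median of all genes by -0.11 for day 9 against day 3.

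Leaving out a library turned signs of uncalled differences. For day 9 against day 3 the estimates ran from -0.54 to 0.27 (Csa7G018770) and from -0.57 to 1.16 (Csa7G043570). For the slope difference they ran from -0.74 to 0.26 (Csa5G160220), -0.29 to 0.39 (Csa2G348200), -0.23 to 0.29 (Csa6G490140), -0.59 to 0.36 (Csa4G653410), -0.45 to 0.27 (Csa5G174630), -0.31 to 0.72 (Csa7G043570), -0.14 to 0.62 (Csa1G062350) and -0.66 to 0.17 (Csa3G175700). No paired analysis by replicate number was possible because each tissue and day had 1 library, so no replicate numbers pair libraries. The day term already sets peel against flesh of the same day, and the fit without it is the unpaired alternative (45 genes called with it, 120 without). Depth limits mainly Csa3G175700 in peel.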
